A study of Mus musculus with 4 samples.

Results

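Macrophages take up, store and export large amounts of lipid, and 10 genes of this machinery were followed across the 4 arrays of the series. The genes were Lpl, Msr1, Cd36, Fabp4, Fabp5, Plin2, Abca1, Abcg1, Apoe and Pparg, and each probe set whose only gene symbol in the array platform's annotation is one of them was kept. All 10 genes were measured, by 15 of the 12422 probe sets tested, and 5 of them had more than 1 probe set. The genes were chosen by name with the Hemangioblast against hCD4 values of these same arrays known, so their levels and changes are a description here and no p-value is given for any of them.

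The RNA came from mouse cells grown from an embryonic stem (ES) cell line called Scl+/hCD4, in which staining for human CD4 reports Scl, a transcription factor of early blood, and which was kept on STO feeder cells before differentiation. Each of the groups, titled Hemangioblast and hCD4, has 2 arrays. The study text describes cells sorted for Flk-1 and Scl from embryoid bodies after 2.75 days, and pools of blast colonies picked from replated embryoid body cells, but the array titles, the sample sources and the study text use these names differently. The sources give differentiated hemangioblasts for the Hemangioblast arrays and hCD4 ES cells for the hCD4 arrays, whereas the study text names hCD4 and Blast as its populations, so which of these cells each array holds is not settled and the array titles are used as group names. Every difference below is Hemangioblast minus hCD4. Separate cultures behind the replicate arrays are not mentioned in the labels, so the p-values rest on array-to-array spread that may be technical alone.

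Lipoprotein lipase, encoded by Lpl, frees fatty acids from circulating lipoproteins, while scavenger receptors such as the products of Msr1 and Cd36 bind modified lipoproteins. Inside the cell, fatty acid binding proteins carry the fatty acids, perilipins coat the droplets in which surplus lipid is stored, and the transporters ABCA1 and ABCG1 pass cholesterol to outside acceptors, apolipoprotein E among them. The nuclear receptor PPAR gamma, encoded by Pparg, is activated by fatty acid derivatives and is known to act on several of these genes. Foam cells of the artery wall are the best known case of macrophages in which uptake exceeds export.

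Across the whole array, median intensity before scaling lay between 165 and 197, and log2 values correlated with Pearson's r of 0.961 between the Hemangioblast arrays, 0.963 between the hCD4 arrays and 0.921 to 0.940 between groups (across probe sets, which are not independent). The ratio of 3' to 5' signal, which grows as RNA degrades, was for Gapdh 1.03 to 1.33 in the Hemangioblast group and 1.03 to 1.13 in the hCD4 group, and for actin 1.16 to 1.63 in the Hemangioblast group and 1.12 to 1.36 in the hCD4 group. In both groups replicate 1 had the higher ratios. Their part in the results was not tested.

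Both probe sets of Lpl, the brighter of the pair for Abca1, and the single probe sets of Plin2 and Fabp5 were higher on both Hemangioblast arrays than on both hCD4 arrays, by at least 2-fold in every pair of arrays. The other Abca1 probe set overlapped between the groups. Apoe went the other way by its brighter probe set, with a Hemangioblast mean 0.527 times the hCD4 mean. Msr1, Cd36, Fabp4, Abcg1 and Pparg showed no difference of 2-fold in every pair once scaled intensities under 16 were set to 16. Without that floor Msr1 (probe set 2) was at least 2-fold lower in every pair, at intensities around or below 16. By the rule of 2-fold in all 4 pairs, with scaled intensities under 16 set to 16, 5 of the 15 probe sets were higher and 0 lower, where 2.81% of all probe sets were higher and 0.765% lower. In limma's fit over all 12422 probe sets, 5 of the 15 were past an adjusted p of 0.05 as higher and 1 as lower, beside 2.91% and 1.56% of all probe sets. Because the genes were chosen with this contrast known, nothing is read from these counts. The median log2 change was 0.56 over the 15 probe sets and 0.04 over all probe sets. Scaled intensities are given per array or as mean ± SD of 2 arrays, and log2 changes with their standard errors (SE) are those of the scaled intensity plus 16, a constant that shrinks the change of dim probe sets.

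**Figure D1:**
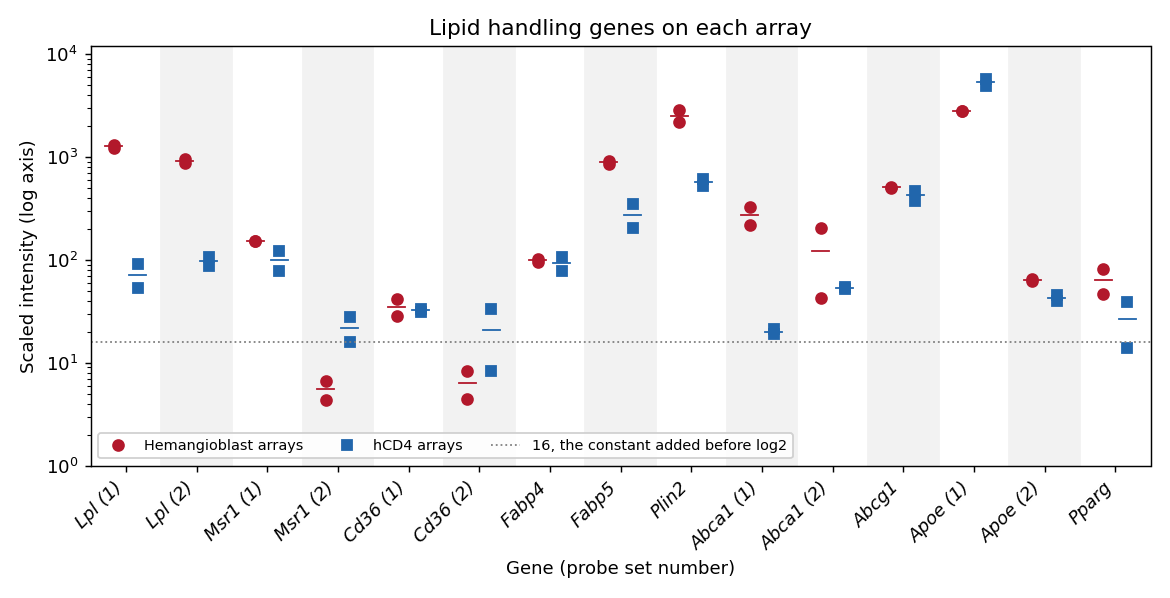
Scaled intensity (log axis) of the 15 probe sets of the lipid handling genes on each array, with Hemangioblast arrays as circles, hCD4 arrays as squares, short lines at the group means and a dotted line at 16. Both probe sets of Lpl and those of Fabp5, Plin2 and Abca1 (probe set 1) stand at least 2-fold apart in every pair of arrays, Apoe (probe set 1) is lower on the Hemangioblast arrays, and the arrays of the groups overlap for Cd36 (probe set 1), Fabp4 and Abca1 (probe set 2).

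RefSeq promoter sequences (GRCm38.p6) were at hand for 5 of the 10 genes, namely Abca1, Plin2, Cd36, Pparg and Apoe. The 250 bases before the start site are shown for Abca1 and Plin2, which were higher on the Hemangioblast arrays, and for the most upstream of the 3 listed starts of Apoe, which was lower, to set side by side the control regions of genes that differed in opposite directions. Capitals mark matches on either strand to 5 short motifs. These were TATAAA (the TATA box), AGGTCA (a site of nuclear receptors), GGGCGG (the GC box), CCAAT (the CCAAT box) and CACGTG (an E-box). No match overlaps another in the windows shown.

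Abca1, chr4:53159896-53160145, minus strand: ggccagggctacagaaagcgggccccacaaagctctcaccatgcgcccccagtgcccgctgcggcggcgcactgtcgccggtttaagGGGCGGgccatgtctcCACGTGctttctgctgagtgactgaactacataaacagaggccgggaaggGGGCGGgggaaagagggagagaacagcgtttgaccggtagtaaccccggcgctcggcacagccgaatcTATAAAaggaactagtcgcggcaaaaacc
Plin2, chr4:86670060-86670309, minus strand: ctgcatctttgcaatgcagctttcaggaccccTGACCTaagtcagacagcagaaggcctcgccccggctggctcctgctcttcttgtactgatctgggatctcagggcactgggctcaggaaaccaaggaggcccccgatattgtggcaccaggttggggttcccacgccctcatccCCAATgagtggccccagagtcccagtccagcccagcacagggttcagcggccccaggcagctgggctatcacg
Apoe, chr7:19699189-19699438, minus strand: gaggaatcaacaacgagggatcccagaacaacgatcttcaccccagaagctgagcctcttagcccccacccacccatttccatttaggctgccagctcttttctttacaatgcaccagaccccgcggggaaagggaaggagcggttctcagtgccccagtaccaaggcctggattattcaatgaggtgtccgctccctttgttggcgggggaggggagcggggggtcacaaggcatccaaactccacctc

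The Abca1 window held a TATA box that begins 29 bases before the start site, GC boxes at 163 and 97 bases and an E-box at 147 bases. The Plin2 window held a nuclear receptor motif, read on the other strand, at 218 bases and a CCAAT motif at 73 bases. None of the 5 motifs was found in the Apoe window, which says only that these letters are not in these bases, and the window before another Apoe start held TATA boxes at 100 and 96 bases, which overlap. The nuclear receptor motif was also found before Cd36 (228 bases) and before 2 of the 3 listed starts of Pparg (28 and 9 bases). Among the 32851 windows of the same length in the table, 14.0% held the nuclear receptor motif, 12.4% the TATA box, 33.8% CCAAT, 32.7% the GC box and 6.02% the E-box, so single matches are common. GC content was 61.6% for Abca1, 61.6% for Plin2 and 57.2% for Apoe, against a median of 52.4%. These matches describe letters and show neither binding nor a cause of the levels below.

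Uptake begins with Lpl, whose difference was the largest in size among the 15 probe sets. Its brighter probe set read 1321 and 1228 on the Hemangioblast arrays, against 90.2 and 53.8 on the hCD4 arrays. The groups lay far apart, with ratios of 13.6 to 24.5 between single arrays. On the log2 scale the hCD4 arrays differed from each other by more (0.61) than the Hemangioblast arrays did (0.10). The log2 change was 3.90 (SE 0.246), and 9 of the 12422 probe sets had a larger one. The other probe set read 880 and 948 on the Hemangioblast arrays, against 86.6 and 106 on the hCD4 arrays. It gave a log2 change of 3.05 (SE 0.207), so both probe sets put Lpl higher, by ratios of the means of 17.7 and 9.48.

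Msr1 encodes scavenger receptor A, which takes up acetylated and oxidised lipoproteins, and its probe sets pointed in opposite directions. Probe set 1 read 153 and 153 on the Hemangioblast arrays, against 78.6 and 123 on the hCD4 arrays, which is higher without overlap but by only 1.25 to 1.95 times in single pairs. Its log2 change was 0.56 (SE 0.304). Probe set 2 read 6.63 and 4.38 on the Hemangioblast arrays, against 27.6 and 16.1 on the hCD4 arrays. These readings lie around or below 16, and the log2 change of -0.80 (SE 0.357) rests on them.

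Cd36, a receptor for oxidised lipoproteins and long-chain fatty acids that platelets and capillary endothelium also carry, stayed dim. Probe set 1 read 41.5 and 28.3 on the Hemangioblast arrays, against 33.6 and 31.5 on the hCD4 arrays, and the hCD4 readings lay between the Hemangioblast ones. The log2 change was 0.06 (SE 0.347), and its sign turned with quantile normalization (-0.17) and without Hemangioblast replicate 1 (-0.13). Probe set 2 read 4.49 and 8.32 on the Hemangioblast arrays, against 8.37 and 33.5 on the hCD4 arrays, with 1 array of the 4 above 16. No difference in Cd36 larger than the spread between arrays was detectable.

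The 2 fatty acid binding proteins among the 10 genes parted. Fabp5, the epidermal type that macrophages also make, read 861 and 907 on the Hemangioblast arrays, against 204 and 345 on the hCD4 arrays. The groups were 2.49- to 4.45-fold apart in single pairs, and the hCD4 arrays differed by 0.72 on the log2 scale. The log2 change was 1.68 (SE 0.246), with 1.32 without hCD4 replicate 1 and 2.03 without hCD4 replicate 2. Fabp4, the adipocyte type that endothelium and macrophages also make, read 94.6 and 103 on the Hemangioblast arrays, against 77.7 and 107 on the hCD4 arrays. The groups overlapped, the log2 change was 0.09 (SE 0.309), and its sign turned with quantile normalization (-0.06) and without hCD4 replicate 1 (-0.10).

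Storage was represented by Plin2, which encodes the droplet coat protein perilipin 2, also called adipophilin. It read 2195 and 2844 on the Hemangioblast arrays, against 528 and 608 on the hCD4 arrays. Every Hemangioblast reading was at least 3.61 times every hCD4 reading. Group means were 2519 ± 459 and 568 ± 56.9 (SD, n = 2 each), with a log2 change of 2.11 (SE 0.176). Over the 12 alternatives tried it ranged from 1.92 to 2.30, the narrowest relative range of the 4 higher genes.

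Of the exporters, Abca1, which passes cholesterol and phospholipid to lipid-poor apolipoproteins, was higher by probe set 1 only. That probe set read 217 and 329 on the Hemangioblast arrays, against 18.9 and 21.1 on the hCD4 arrays. The hCD4 readings were close to the added constant of 16, which therefore sets part of the change: the ratio of the means was 13.7, while the log2 change of 2.98 (SE 0.332) corresponds to 7.89-fold, and a constant of 1 or 64 gave 3.68 or 1.99. Probe set 2 read 42.9 and 202 on the Hemangioblast arrays, against 52.2 and 54.3 on the hCD4 arrays. One Hemangioblast array was below both hCD4 arrays and the other above them, so this probe set gave a log2 change of 0.71 (SE 0.560), which became 1.65 without Hemangioblast replicate 1 and -0.23 without Hemangioblast replicate 2. Abcg1, which exports cholesterol to high-density lipoprotein, read 513 and 500 on the Hemangioblast arrays, against 469 and 377 on the hCD4 arrays. These readings did not overlap, but the log2 change was 0.26 (SE 0.188), smaller than the difference of 0.30 between the hCD4 arrays.

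Apoe encodes the apolipoprotein that macrophages secrete and that ferries cholesterol to other cells. Its brighter probe set read 2787 and 2810 on the Hemangioblast arrays, against 4902 and 5722 on the hCD4 arrays. Readings were high on all 4 arrays and lower on both Hemangioblast arrays, with a log2 change of -0.92 (SE 0.144) and a range of -1.03 to -0.81 over the alternatives. The other probe set was dim, at 65.2 and 62.5 on the Hemangioblast arrays, against 39.9 and 45.4 on the hCD4 arrays, and pointed upward by 0.45 (SE 0.325). The probe sets of Apoe thus differ in sign. The brighter one is the probe set counted above as lower in limma's fit, and nothing is read from that count.

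Pparg was dim on the hCD4 arrays and variable in both groups. It read 81.8 and 46.2 on the Hemangioblast arrays, against 14.0 and 39.1 on the hCD4 arrays. Readings did not overlap, but the nearest pair differed by 1.18 times. The log2 change was 0.94 (SE 0.427), close to the differences of 0.65 between the Hemangioblast arrays and 0.88 between the hCD4 arrays.

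**Figure D2:**
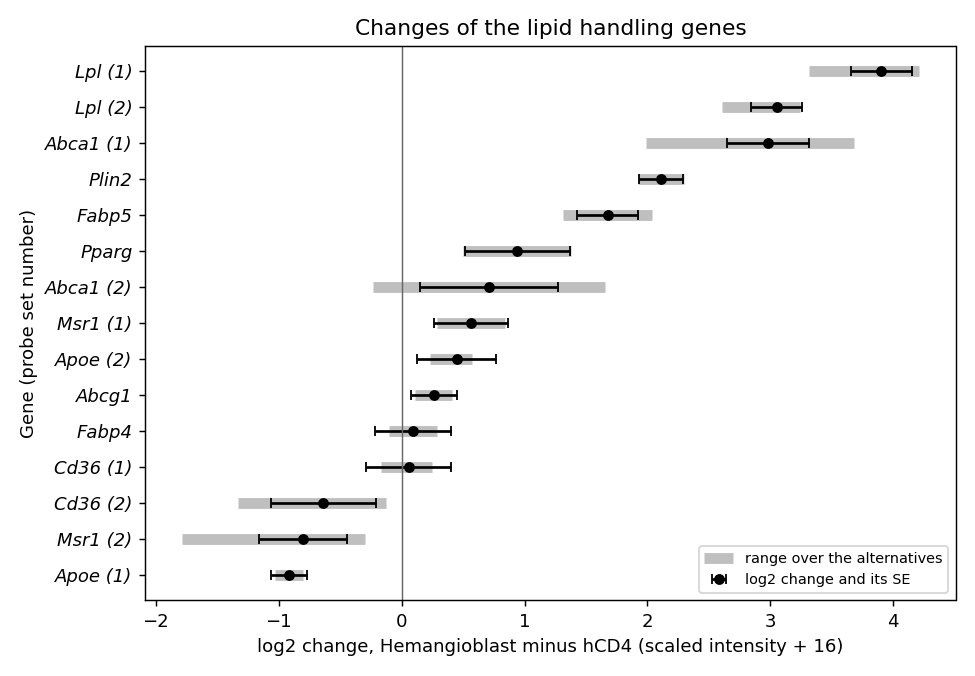
Log2 change (Hemangioblast minus hCD4, of the scaled intensity plus 16) of each of the 15 probe sets, sorted by size, with points and bars for the change and its SE and grey bands for the range over the 12 alternatives tried, or 11 where a probe set was left out as dim. The bands of both Lpl probe sets, Abca1 (probe set 1), Plin2 and Fabp5 lie wholly above 0 and that of Apoe (probe set 1) wholly below it, while those of Abca1 (probe set 2), Fabp4 and Cd36 (probe set 1) cross 0.

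Hemangioblast and hCD4 readings were without overlap for 12 of the 15 probe sets, 9 higher and 3 lower on the Hemangioblast arrays, and for 44.4% of all probe sets. Of the 15 probe sets, 10 had a group mean of at least 64 and 5 did not. The median difference between arrays of a group, on the log2 scale and without sign, was 0.11 for the Hemangioblast arrays and 0.30 for the hCD4 arrays over the 15 probe sets, and 0.27 and 0.25 over all probe sets.

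Macrophage markers were higher on the same arrays as Lpl, Abca1 (probe set 1), Plin2 and Fabp5. The marker lists were written with earlier results of these arrays known, so their counts and p-values are not independent evidence. Of 15 macrophage markers measured, 10 rose and 0 fell, where 3.43% of all named genes were higher and 1.95% lower. The median log2 change of the markers was 2.20, and Tyrobp, Ctss and Mpeg1 had the smallest adjusted p-values (3.72e-05 to 0.000141, limma). Their summed scaled intensity was 8753 and 9910 on the Hemangioblast arrays, against 1954 and 2187 on the hCD4 arrays. The 5 that did not pass were Cd68, Itgam, Fcgr1, Mrc1 and Cybb, and Cd14 and Aif1 passed with all 4 arrays but not without Hemangioblast replicate 2 or either hCD4 array (adjusted p 0.0766 to 0.196). Adgre1, which encodes the F4/80 antigen of macrophages, read 13.1 and 4.14 on the hCD4 arrays, both under 16. A second, dimmer probe set of Mpeg1 pointed the other way without passing (log2 change -0.82, adjusted p = 0.370). In bulk RNA such as this, more cells of a type and more RNA per cell cannot be told apart, and the part that macrophage content has in the changes of the lipid genes was not tested.

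Other cell types that carry some of these genes gave mixed values. Their counts stand beside the same 3.43% of named genes higher and 1.95% lower. None of 5 adipocyte markers passed, Adipoq, Lep and Ucp1 having the smallest adjusted p-values (0.840 to 0.907), and the summed intensity overlapped (492 and 643 on the Hemangioblast arrays, against 442 and 666 on the hCD4 arrays). Retn, one of these markers, read at most 2.27 on any array. Among 10 endothelial markers Vwf and Tie1 rose and Kdr fell, and the sums overlapped (4884 to 5537 on the Hemangioblast arrays, against 4992 to 5885 on the hCD4 arrays). Of 4 platelet and megakaryocyte markers Gp1bb, Gp5 and Gp9 rose, with sums of 1191 and 1288 on the Hemangioblast arrays, against 237 and 306 on the hCD4 arrays. Of 6 erythroid markers 4 rose, led by Hbb-bh1, Hbb-y and Alas2, with sums of 29257 and 32638 on the Hemangioblast arrays, against 11385 and 12054 on the hCD4 arrays. Visceral endoderm, which makes apolipoproteins in the early embryo, had 0 of 9 markers past the threshold (Foxa2, Cubn and Hnf4a had the smallest adjusted p-values, 0.221 to 0.640) and sums of 452 and 577 on the Hemangioblast arrays, against 678 and 715 on the hCD4 arrays. Of 9 stromal markers Col3a1 rose, Postn (adjusted p = 0.0751) and Col1a1 (0.546) did not pass, and the sums were 2054 and 2596 on the Hemangioblast arrays, against 2002 and 1666 on the hCD4 arrays. With 1 array left out, calls were lost for Col3a1 and Gp5 (without Hemangioblast replicate 2), for Tie1, Col3a1 and Hba-x (without hCD4 replicate 1) and for Col3a1 and Hba-x (without hCD4 replicate 2), at adjusted p-values of 0.0599 to 0.156. Second probe sets of Vwf (adjusted p = 0.870) and Gp5 (0.512) and the other probe sets of Col3a1 (0.633 and 0.483) were higher on average but did not pass. Within the visceral endoderm sums Cubn read 73.7 and 63.7 on the Hemangioblast arrays, against 231 and 82.3 on the hCD4 arrays. The separation of these sums rests on Cubn, and without it they overlap between the groups. A second probe set of Cubn pointed the other way, upward, without passing (log2 change 0.32, limma adjusted p = 0.751). The part of these cells in the lipid gene values was not tested.

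**Figure D3:**
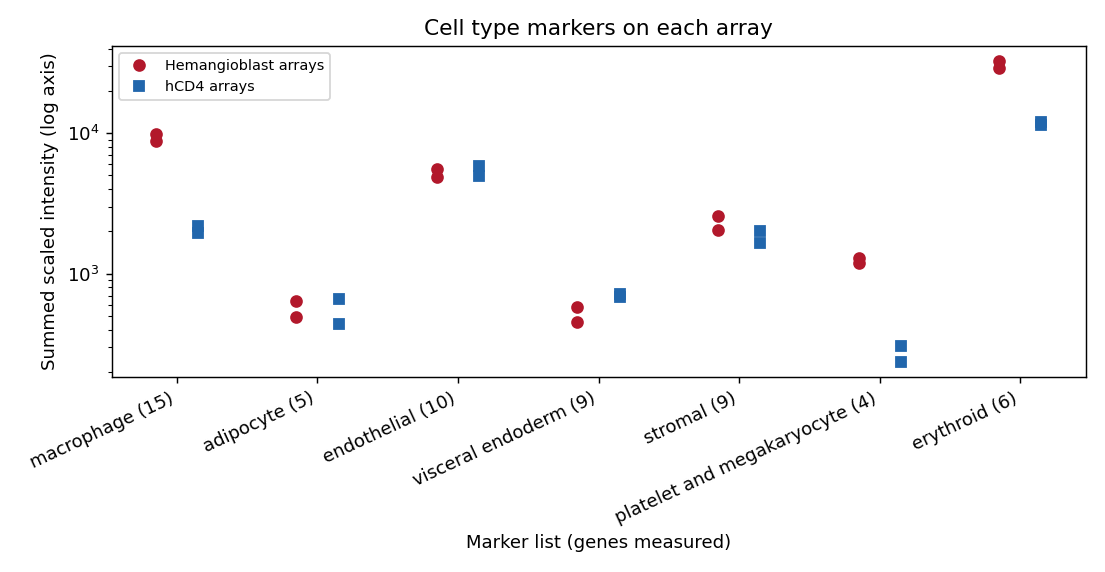
Summed scaled intensity (log axis) of 7 lists of cell type markers on each array, with circles for the Hemangioblast arrays, squares for the hCD4 arrays and the number of genes measured in brackets. The macrophage sum is 8753 and 9910 on the Hemangioblast arrays, against 1954 and 2187 on the hCD4 arrays, while the adipocyte and endothelial sums overlap between the groups.

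The wider lipid machinery was examined through 5 further lists, none of which holds any of the 10 genes. Of 92 distinct genes listed 66 were measured, and 5 rose and 1 fell (limma adjusted p under 0.05), where 3.43% of all 8251 named genes were higher and 1.95% lower. Their median log2 change was 0.09. Acsl5, Cpt1a, Lipa, Scarb2 and Cebpb were higher and Fasn was lower, and the other 60 genes did not pass the test by their brightest probe set. With any probe set of a gene counted the number was 7, since a dimmer probe set of Scd1, a fatty acid desaturase singled out by its value, fell (log2 change -0.89, adjusted p = 0.0463) while its other probe sets did not pass (adjusted p = 0.155 and 0.761). All of the lists were written with earlier results of these arrays known, so their counts are not independent evidence.

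Among 18 measured genes of lipid storage and fatty acid use, 3 rose and 1 fell (median log2 change 0.15). Acsl5, which joins fatty acids to coenzyme A, read 891 and 837 on the Hemangioblast arrays, against 322 and 262 on the hCD4 arrays (log2 change 1.52, SE 0.183, limma adjusted p = 0.00269). Cpt1a, the gatekeeper of fatty acid entry into mitochondria, read 396 and 455 on the Hemangioblast arrays, against 169 and 154 on the hCD4 arrays (1.31, SE 0.214, adjusted p = 0.0131). Lipa, the lysosomal acid lipase that splits the cholesteryl esters of ingested lipoproteins, read 314 and 418 on the Hemangioblast arrays, against 128 and 130 on the hCD4 arrays (1.38, SE 0.243, adjusted p = 0.0171). Readings of these 3 genes did not overlap between the groups. Acsl5 stayed past the threshold under all 12 alternatives, whereas Cpt1a and Lipa passed under 8, and missed it without the intensity trend and without Hemangioblast replicate 2 or either hCD4 array (adjusted p up to 0.0851 and 0.124). Fasn, which makes fatty acids and is named here only because its value stood out, fell: it read 973 and 921 on the Hemangioblast arrays, against 1559 and 1584 on the hCD4 arrays (-0.72, SE 0.143, adjusted p = 0.0283). Fasn passed under 6 of the 12 alternatives and missed the threshold without Hemangioblast replicate 2 and without either hCD4 array (adjusted p up to 0.222).

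In the uptake list 1 of 11 measured genes rose (median log2 change 0.15). This was Scarb2, a lysosomal membrane protein of the same family as Cd36, at 291 and 382 on the Hemangioblast arrays, against 149 and 113 on the hCD4 arrays (log2 change 1.26, SE 0.259, limma adjusted p = 0.0337). The call of Scarb2 was lost with any 1 array left out, where its log2 change was 1.07 to 1.45. Olr1, another receptor for oxidised lipoproteins, read 103 and 120 on the Hemangioblast arrays, against 41.4 and 45.9 on the hCD4 arrays, and did not pass (adjusted p = 0.109), nor did the scavenger receptor gene Stab1 (0.502).

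Sterol export, transport and sensing gave no call among 15 measured genes (median log2 change 0.07), and the smallest adjusted p-values were those of the sterol carrier gene Stard3 (0.289), the lipid regulator Srebf1 (0.497) and Lcat (0.674), which esterifies plasma cholesterol. Likewise 0 of 10 measured genes of the lipid-binding protein family passed (median 0.10), led by Scp2 (0.403), Rbp2 (0.451) and Fabp7 (0.733). In the PPAR and C/EBP list 1 of 12 rose (median -0.02). This was Cebpb, a transcription factor of macrophages and of early fat cell formation, at 540 and 506 on the Hemangioblast arrays, against 163 and 96.0 on the hCD4 arrays (log2 change 1.93, SE 0.267, adjusted p = 0.00585), and it stayed past the threshold under all 12 alternatives. Rxrg (adjusted p = 0.348), which read at most 15.8 on any array, and Ppargc1a (0.543) followed it without passing.

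**Figure D4:**
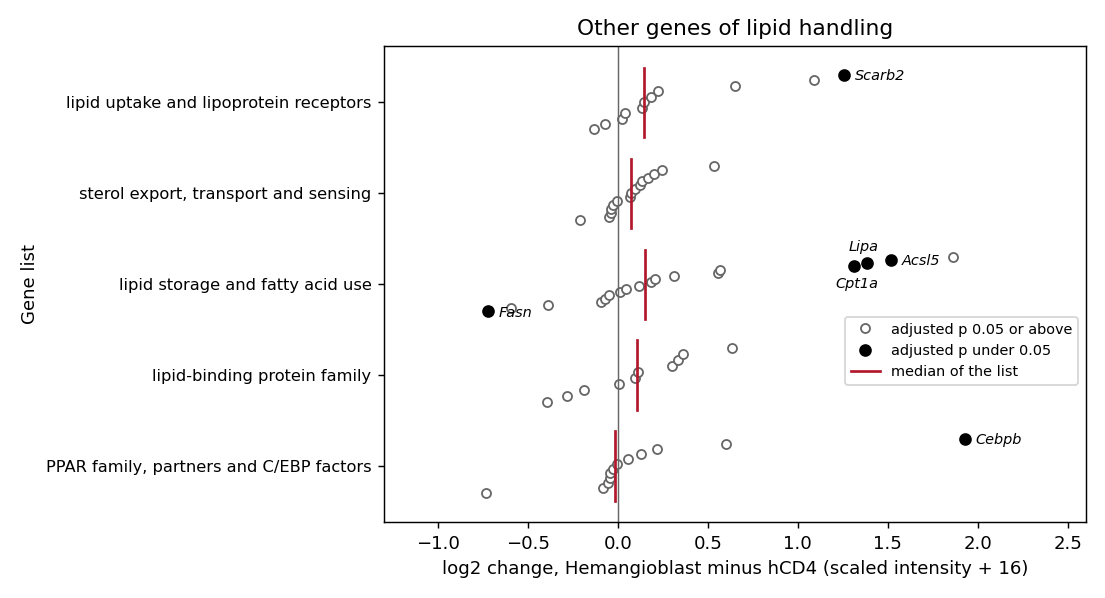
Log2 change (Hemangioblast minus hCD4) of each measured gene in 5 lists of other lipid genes, with filled points where the limma adjusted p was under 0.05, open points elsewhere and a vertical bar at each list's median. The 6 filled points are Scarb2, Lipa, Cpt1a, Acsl5 and Cebpb on the right and Fasn on the left, and all medians lie between -0.02 and 0.15.

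The patterns nearest to that of Lpl were looked for among probe sets of a single symbol, by the root mean square difference of log2 values centred on their own mean, over the 4 arrays. The nearest were Anxa1 (0.094), Ccl6 (0.110), Lgals3 (0.206), Slfn2 (0.218) and Gp1bb (0.239). Anxa1 encodes an annexin, Ccl6 a chemokine, Lgals3 a lectin abundant in macrophages and Gp1bb a platelet receptor chain. By the same measure the second probe set of Lpl stood at 0.528, Abca1 (probe set 1) at 0.575, Plin2 at 0.956 and Fabp5 at 1.21, all farther than these 5. With 4 arrays in 2 groups the measure reflects mainly the size of the change and which hCD4 array read lower.

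**Figure D5:**
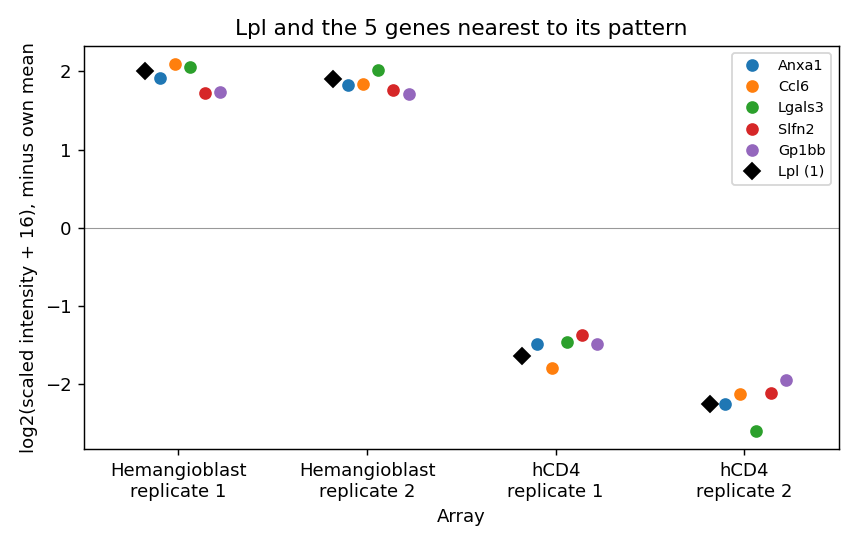
Log2 of the scaled intensity plus 16, minus each probe set's own mean, on the 4 arrays for Lpl (probe set 1, diamonds) and the 5 genes nearest to its pattern (circles). All 6 genes are high on both Hemangioblast arrays, low on both hCD4 arrays, and lower on hCD4 replicate 2 than on hCD4 replicate 1.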

How the data were processed

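The deposited table, made by the authors, holds linear intensities, 1 value for each probe set on each array, and all 4 columns were used. How the authors obtained them from the scans is not given in the sources used here. Total RNA (20 ug) was labelled with biotin without amplification, per the labels.

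Of 12488 probe sets, 66 array maker controls were left out. Arrays were scaled to the average of their trimmed means (2% at each end, factors 0.936 to 1.09), and log2 of the scaled intensity plus 16 was compared as Hemangioblast minus hCD4 with limma 3.58.1 in R 4.3.3 (lmFit, eBayes with an intensity trend, 2 residual and 6.18 prior degrees of freedom), two-sided, with Benjamini-Hochberg adjustment over 12422 probe sets and a threshold of 0.05. Only 2 arrays per group limit the precision. With groups of 2 the smallest two-sided p of an exact permutation test is 0.333, and this test was left out.

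Symbols came from the platform annotation (10833 probe sets with 1 symbol, 396 with several, 1193 with none). Through gene identifiers, 10817 matched the RefSeq table and 0 symbols differed. Probe sets of 1 gene are numbered by falling mean intensity. A listed gene is represented by its brightest probe set. Levels of different probe sets were not compared. The 10 genes and all lists were chosen with earlier results of these data known. Besides the 10 genes, the text names the 3 genes with the smallest adjusted p of each list and the 5 genes nearest to Lpl in pattern, and a few further genes where a count turns on them. Figures were drawn with matplotlib 3.10.9.

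Alternatives were the constant set to 1 or 64, scaling by the median or none, quantile normalization, no intensity trend, dim probe sets left out (mean under 64 in both groups), the replicate number as a block, each array left out in turn, and for listed genes any probe set counted. The titles share replicate numbers, but nothing says that a number marks a shared culture.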

Additional observations from a re-analysis of the deposited data

How the results depend on the processing

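With 2 arrays per group, the count of 556 probe sets past the threshold (362 higher, 194 lower; 2029 at an unadjusted p under 0.05) varied with the processing. It was 272 without scaling (222 higher, 50 lower), 220 without the intensity trend and 886 with dim probe sets left out. Leaving out 1 array gave 219 to 517, with 369 without Hemangioblast replicate 2, 268 without hCD4 replicate 1 and 219 without hCD4 replicate 2. The count of 6 other lipid genes was 2 without the intensity trend and 2 to 5 with 1 array left out, namely 2 without Hemangioblast replicate 2, 3 without hCD4 replicate 1 and 2 without hCD4 replicate 2. It was 7 with any probe set of a gene counted. The causes were not tested. Leaving out an array or the dim probe sets also lowers the number of arrays or of probe sets in the fit. The count of 10 macrophage markers stayed within 1.5 times of that value under every alternative run for it. So did the count of 5 probe sets of the lipid handling genes at least 2-fold apart. The latter took in 1 lower probe set with the constant and the floor at 1, and 2 without hCD4 replicate 1. With the replicate number as a block 710 probe sets passed, with deviations of same-numbered arrays correlated at -0.008 over probe sets. Replicate 1 of both groups nevertheless had the lower scale factors (0.939 for Hemangioblast, 0.936 for hCD4) and the higher 3' to 5' ratios, and whether the numbers mark a shared preparation is not stated. Of 175 log2 changes of the 15 probe sets under alternatives, 163 moved by less than 1 SD between arrays and 12 by more. Many of these outcomes were fixed in advance. The trend, the block and the removal of dim probe sets leave a log2 change as it is. Leaving out 1 array cannot move it by more than that SD. The 12 larger moves came with another constant or quantile normalization, and the count of 163 is no measure of stability. None of the changes past the threshold reversed, but not all stayed past it. With all 4 arrays kept, Apoe (probe set 1) missed the threshold without scaling and without the intensity trend, and Fabp5 without the intensity trend. Both Lpl probe sets, Plin2 and Abca1 (probe set 1) stayed past it under the alternatives that keep all 4 arrays. The genes were chosen with this contrast known, so nothing is read from which of them passed. Intensities around or below 16 carry little information on the size of a change, which limits Msr1 and Cd36 (probe set 2 of each), Abca1 (probe set 1) and Pparg.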

Other observations

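Acadl, a mitochondrial enzyme of fatty acid breakdown, had the largest log2 change (1.86) of the 60 other lipid genes that did not pass the test. It was singled out after its values were seen. It read 243 and 203 on the Hemangioblast arrays, against 141 and 11.3 on the hCD4 arrays (limma adjusted p = 0.214). On the log2 scale the hCD4 arrays thus differed from each other more than the groups did.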
